A study of Mus musculus with 12 samples.

Results

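The 9 genes followed here make, cut or bind hyaluronan, and their RNA was measured in cultured mouse Müller glia: the synthases Has1, Has2 and Has3, the hyaluronan-degrading genes Hyal1, Hyal2 and Cemip, and the binding proteins Cd44, Vcan and Tnfaip6. They were chosen by function, with earlier results of these data known, and matched by mouse symbol to the Ensembl gene identifiers of the count tables. The shares of members that passed are therefore descriptive only. All 9 were found among 49315 listed genes, and all 9 were among the 17164 genes abundant enough to be tested. Has1 and Has2 were the members that varied most. In glia cultured with PNU-282987-treated RPE, both fell at 6 h relative to 2 h in edgeR's test, as did Has3, while Hyal1 rose. These 4 of 9 passed where 16.1% of all genes did, and Hyal1 shares 50.8% of its exon bases with Naa80. The 4 calls depended on which libraries were counted as separate samples. None was left when near-identical libraries were summed, where 0% of all genes passed. None of the 9 genes passed edgeR's adjusted threshold between PNU and DMSO cultures at either time with all 12 libraries, where DESeq2 called Has2 and Cd44 at 2 h and Has3 at 6 h. At 2 h edgeR's outcome turned on 1 DMSO library.

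Hyaluronan is a long, unsulfated sugar polymer that synthases in the plasma membrane build from cytoplasmic UDP-glucuronic acid and UDP-N-acetylglucosamine and push out of the cell. Versican and TSG-6, the product of Tnfaip6, bind it in the matrix, CD44 binds it at the cell surface, and hyaluronidases and CEMIP cut it. In the eye it is a main component of the vitreous, next to which Müller glia, the radial glia that span the retina, form their end feet.

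The libraries came from primary wild-type Müller glia of mouse retina, passaged at least 3 times (4 passages in the series text), grown in transwells beside primary retinal pigment epithelium (RPE). The RPE had been exposed to PNU-282987, which activates the α7 type of nicotinic acetylcholine receptor, and only the glia were sequenced. The 4 groups of 3 libraries were glia beside RPE given 100 nM PNU-282987 for 6 h (PNU 6 h), glia beside DMSO-exposed RPE for 6 h (DMSO 6 h), the same PNU dose for 2 h (PNU 2 h) and DMSO for 2 h (DMSO 2 h). The vehicle is given as 0.1% DMSO in one label and 1% in another, and the PNU cultures also received it by the second. RPE had been released from eyecups with hyaluronidase before it was passaged. Replicates are called biological, but no label says whether they came from separate animals or cultures, so p-values measure the spread between these libraries only.

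Library totals ran between 44332013 and 66518799 counts, and the lowest count of any member in any library was 76. DMSO 2 h replicate 3 differed more from the other DMSO 2 h libraries (chi-square per degree of freedom 243.8 and 332.5) than from PNU 2 h replicate 1 (34.4), and PNU 6 h replicate 1 differed more from its 2 group mates (127.5 and 130.3) than from the DMSO 6 h libraries (52.9, 58.6 and 60.7). Both libraries therefore lay nearer to another group than to the group on their label, and whether those labels are right cannot be told from these files. DMSO 2 h replicates 1 and 2 differed from each other by 72.05. They too lay nearer to the DMSO 6 h libraries, at 45.0 to 56.5 for replicate 1 and 17.4 to 19.15 for replicate 2. No DMSO 2 h library was thus nearest to its own group. In contrast, 5 pairs within a group (PNU 2 h replicates 2 and 3, PNU 6 h replicates 2 and 3, and all DMSO 6 h libraries) differed by only 2.15 to 3.62, where the other pairs within a group differed by 30.4 to 332.5. The near-identical pairs differed by more than counting noise and were kept as separate libraries in edgeR's test, but that does not show that they came from separate cultures. Summed as an alternative chosen after seeing the data, they left 8 libraries, and 0 of 18400 genes then passed in any of the 5 comparisons. The level of Ddx3y, a gene of the Y chromosome, also varied within groups, at 0.141 CPM (counts scaled to library size) in PNU 6 h replicate 1 against 7.43 and 6.74 CPM in its group mates. It was at 5.00 CPM in DMSO 2 h replicate 3 and 2.23 CPM in PNU 2 h replicate 1, and at 0.141 CPM or below in the other 7 libraries. Libraries compared by time within PNU, and by treatment at each time, thus also differed in Ddx3y. Its part in those comparisons was not tested.

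Of 22 Müller glia markers, 10 had a median above 1 CPM, among them Vim (6063 to 7451 CPM) and Glul (61.5 to 94.4 CPM). The defining markers Rlbp1 and Aqp4 stayed at or below 0.302 and 0.218 CPM. Sox2, a transcription factor of Müller glia and neural progenitors, split the libraries across the labels. It was at 8.27 to 9.39 CPM in PNU replicates 2 and 3 at both times, and at 0.243 CPM or below in PNU replicate 1 at both times and in all 6 DMSO libraries. Its part in the comparisons of PNU with DMSO was not tested. Fibroblast markers were above 1 CPM for 11 of 13 genes and pericyte and smooth muscle markers for 9 of 12, with Col1a1 at 3509 to 4895 CPM. Of 12 RPE markers, 6 including Rpe65 had no more than 3 counts in any library. The cells are therefore called cultured glia by their label only. Fewer cells of a type and less RNA per cell cannot be told apart in such bulk libraries.

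**Figure D1:**
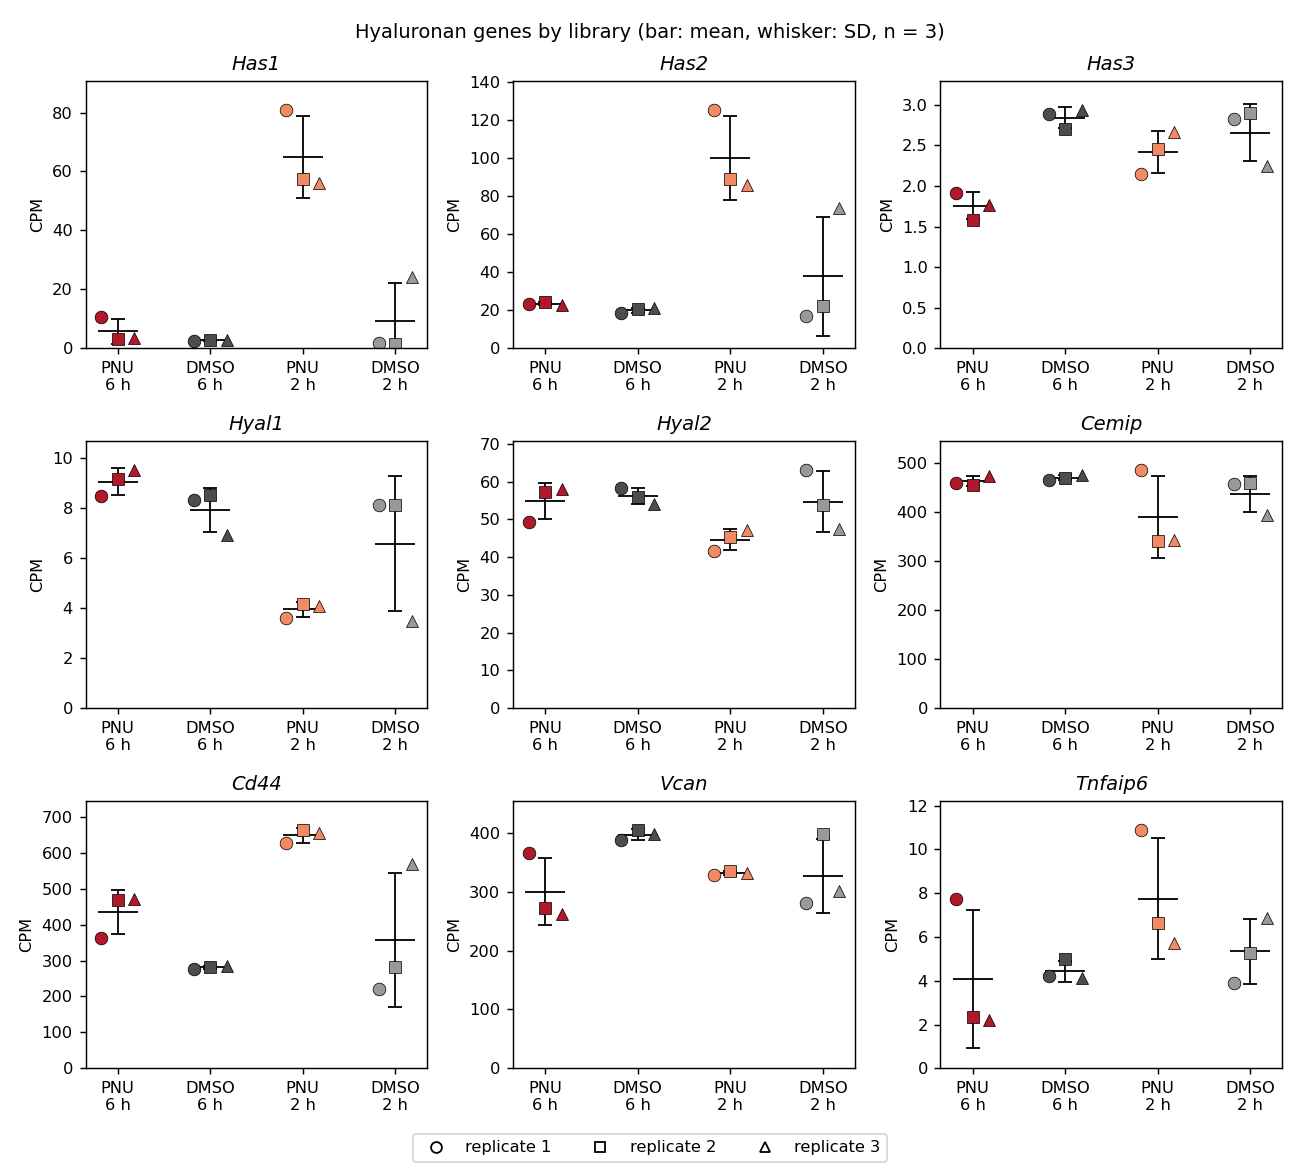
CPM of the 9 genes in each of the 12 libraries, with groups along the x axis, replicates by marker shape, the group mean as a bar and its SD as whiskers (n = 3). Has1 and Has2 are highest in the PNU 2 h libraries, and 1 DMSO 2 h library (replicate 3) lies apart from its group for Has1, Has2, Cd44 and Hyal1.

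Has1 encodes a hyaluronan synthase (chr17:17843328-17855188, minus strand, GRCm38). Its level ran over a 55.2-fold range of CPM across the 12 libraries, the widest of the 9 genes. It stood at 10.7, 3.14 and 3.57 CPM in PNU 6 h cultures, against 2.57, 2.65 and 2.77 CPM in DMSO 6 h cultures. The 2 h values were 81.0, 57.4 and 56.2 CPM in PNU cultures, against 1.81, 1.47 and 24.2 CPM in DMSO cultures. The PNU libraries were all above the DMSO libraries at both times, but PNU 6 h replicate 1 stood above its 2 group mates and DMSO 2 h replicate 3 stood far above its own.

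The 250 bases before the Has1 start are shown because Has1 had the widest range. RefSeq's promoter table (GRCm38.p6) held windows for 7 of the 9 genes, without Has2 and Has3. The windows were searched on both strands for AP-1 (TGANTCA), a CREB core (TGACGT), Sp1 (GGGCGG), TEAD (GGAATG), NF-kB (GGGACTTTC), TATAAA (the TATA box), STAT (TTCCNGGAA) and E-box (CACGTG). Capitals in the Has1 window (chr17:17855189-17855438, minus strand) mark the 2 CREB cores, which overlap on opposite strands as 1 palindrome from base -83.
Has1: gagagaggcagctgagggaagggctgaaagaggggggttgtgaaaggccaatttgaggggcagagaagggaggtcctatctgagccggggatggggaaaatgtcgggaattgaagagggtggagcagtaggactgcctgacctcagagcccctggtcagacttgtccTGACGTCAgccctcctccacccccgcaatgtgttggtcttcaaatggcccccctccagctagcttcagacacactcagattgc
The core occurs in 6.47% of 32851 promoter windows of this length. The whole palindrome TGACGTCA, looked up after the cores were seen, occurs in 1.55%. A match describes the letters and is no evidence that a factor was bound.

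Has2, the synthase required for most hyaluronan in mouse development (chr15:56665627-56694539, minus strand), followed the same order of groups. It had 23.2, 24.3 and 22.6 CPM in PNU 6 h cultures, against 18.5, 20.3 and 21.1 CPM in DMSO 6 h cultures. At 2 h it had 125.3, 89.1 and 85.5 CPM in PNU cultures, against 17.1, 22.4 and 73.7 CPM in DMSO cultures. PNU and DMSO libraries did not overlap at either time, and the third DMSO 2 h library was again nearer to the PNU libraries than to its own group. The antisense transcript Has2os shares 182 exon bases with Has2. It was at 0.696 to 1.18 CPM over the 12 libraries.

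Has3, the third synthase (chr8:106870242-106884566, plus strand), was the least abundant member per exon length in each group, at 1.59 to 2.94 CPM. It had 1.91, 1.59 and 1.77 CPM in PNU 6 h cultures, against 2.89, 2.70 and 2.94 CPM in DMSO 6 h cultures, which did not overlap. The 2 h levels were 2.14, 2.46 and 2.66 CPM in PNU cultures, against 2.82, 2.90 and 2.25 CPM in DMSO cultures, which did. Has3 shares 352 exon bases with Chtf8 on the opposite strand, a gene at 99.5 to 129.1 CPM. No source used here states the strand setting of the counting, so some Has3 counts may come from Chtf8.

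**Figure D2:**
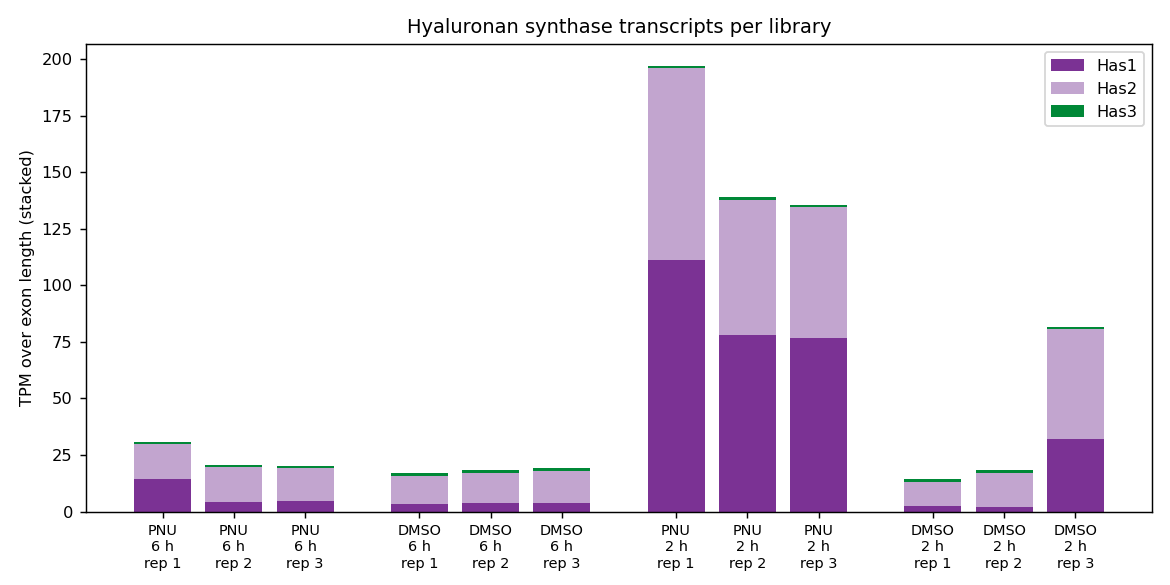
Stacked TPM (counts scaled to exon length and library size) of Has1, Has2 and Has3 in each library, ordered by group along the x axis. The 3 PNU 2 h libraries reach 136 to 197 TPM, DMSO 2 h replicate 3 reaches 81.7 TPM, and the other 8 libraries stay between 14.2 and 30.6 TPM.

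Per exon length, the summed synthase level was 20.2 to 30.6 TPM in PNU 6 h cultures and 17.0 to 19.1 TPM in DMSO 6 h cultures. At 2 h it was 136 to 197 TPM in PNU cultures, and 14.2, 18.3 and 81.7 TPM in the 3 DMSO cultures. The make-up of the sum also differed. Has1 made up 56.2 to 56.6% of synthase TPM in PNU 2 h libraries and 39.5% in DMSO 2 h replicate 3, but 10.9 and 16.2% in the other 2 DMSO 2 h libraries. At 6 h its share was 47.0% in PNU replicate 1, 20.1 and 23.4% in the other PNU libraries, and 19.5 to 20.3% in DMSO libraries. Has2 made up the largest share in all PNU 6 h and DMSO libraries, and Has3 made up at most 8.28% anywhere.

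Hyal1 and Hyal2 encode hyaluronidases, the first lysosomal and the second anchored at the cell surface, and lie next to each other (chr9:107576927-107581710 and chr9:107567945-107572779, both plus strand). Hyal1 had 8.47, 9.14 and 9.51 CPM in PNU 6 h cultures, against 8.30, 8.51 and 6.90 CPM in DMSO 6 h cultures. Its 2 h levels were 3.60, 4.16 and 4.09 CPM in PNU cultures, against 8.12, 8.11 and 3.47 CPM in DMSO cultures. Groups overlapped at both times, and DMSO 2 h replicate 3 was the lowest library of all. The reading of Hyal1 is uncertain, because 50.8% of its exon bases (1920) lie in exons of Naa80 on the same strand, at 11.1 to 22.6 CPM, and 159 in Hyal3.

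Hyal2 moved little, with 49.4, 57.2 and 58.0 CPM in PNU 6 h cultures and 58.2, 56.0 and 54.2 CPM in DMSO 6 h cultures. Levels at 2 h were 41.6, 45.2 and 47.1 CPM in PNU cultures, against 63.1, 53.7 and 47.3 CPM in DMSO cultures. The 2 h groups were separated only by the gap between 47.1 CPM (PNU replicate 3) and 47.3 CPM (DMSO replicate 3).

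Cemip (chr7:83932857-84086502, minus strand) encodes a hyaluronan-binding protein needed for depolymerisation of hyaluronan in skin fibroblasts. It varied least of the 9 genes, over a 1.43-fold range of CPM. It had 460, 455 and 475 CPM in PNU 6 h cultures, against 466, 470 and 477 CPM in DMSO 6 h cultures. At 2 h it had 487, 341 and 343 CPM in PNU cultures, against 458, 460 and 395 CPM in DMSO cultures. Groups overlapped at both times, and PNU 2 h replicate 1 was higher than its 2 near-identical group mates. Its window (chr7:84086506-84086755, minus strand) is shown as that of the steadiest member, with capitals on 2 Sp1 matches on the opposite strand, at bases -168 and -145, and on a TATA match at base -29.
Cemip: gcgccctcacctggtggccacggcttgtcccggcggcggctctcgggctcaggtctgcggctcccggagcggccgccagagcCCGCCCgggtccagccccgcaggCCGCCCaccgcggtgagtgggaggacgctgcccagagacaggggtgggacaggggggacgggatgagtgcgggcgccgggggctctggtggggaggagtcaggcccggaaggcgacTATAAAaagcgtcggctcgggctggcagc
Sp1 letters occur in 32.7% and TATA letters in 12.4% of the promoter windows. The window had a GC content of 75.2%, against 58.0% for Has1 and 56.4% for Cd44.

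Cd44, the main cell-surface receptor for hyaluronan (chr2:102811141-102901665, minus strand), was the most abundant member per exon length in each group. It had 363, 470 and 471 CPM in PNU 6 h cultures, against 276, 281 and 285 CPM in DMSO 6 h cultures. The 2 h levels were 626, 664 and 655 CPM in PNU cultures, against 220, 283 and 568 CPM in DMSO cultures. PNU libraries lay above DMSO libraries at both times, and DMSO 2 h replicate 3 lay nearer to the PNU libraries. The gene counts do not resolve its splice forms, or those of Vcan. The Cd44 window (chr2:102901666-102901915, minus strand) is shown because the gene moved with Has1 across libraries. It held none of the 8 motifs, so no base is in capitals.
Cd44: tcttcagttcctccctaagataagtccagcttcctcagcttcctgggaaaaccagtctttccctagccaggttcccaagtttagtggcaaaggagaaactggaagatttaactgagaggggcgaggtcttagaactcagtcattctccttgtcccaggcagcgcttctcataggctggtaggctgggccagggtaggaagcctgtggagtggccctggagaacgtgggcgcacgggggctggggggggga
That result says only that those letters are not in this window.

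Vcan encodes versican, a large proteoglycan that binds hyaluronan through its N-terminal domain (chr13:89655312-89742509, minus strand). It had 365, 272 and 261 CPM in PNU 6 h cultures, against 388, 405 and 398 CPM in DMSO 6 h cultures, with all PNU libraries lower. Its 2 h levels were 327, 335 and 332 CPM in PNU cultures, against 281, 398 and 301 CPM in DMSO cultures, and these overlapped. Its promoter window held 2 Sp1 matches.

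Tnfaip6 encodes TSG-6, which moves heavy chains of inter-α-inhibitor onto hyaluronan (chr2:52038009-52056686, plus strand). It had 7.73, 2.36 and 2.19 CPM in PNU 6 h cultures, against 4.20, 4.99 and 4.10 CPM in DMSO 6 h cultures. Levels at 2 h were 10.9, 6.61 and 5.74 CPM in PNU cultures, against 3.90, 5.25 and 6.87 CPM in DMSO cultures. Groups overlapped at both times, and within each PNU group replicate 1 was the highest library. Its window was the only one of the 7 with an AP-1 match, at base -142, letters that 6.75% of promoter windows hold.

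Ranked by mean TPM over exon length, the order in PNU 2 h cultures was Cd44 (273 ± 7.20 TPM, SD, n = 3), Cemip (91.1 ± 19.9), Has1 (88.7 ± 19.4), Has2 (67.4 ± 15.1), Vcan (65.4 ± 0.464), Hyal2 (38.7 ± 2.35), Tnfaip6 (12.9 ± 4.65), Hyal1 (2.98 ± 0.218) and Has3 (1.08 ± 0.115). The neighbours from Cemip to Vcan overlapped in range and are not separated by this order. In DMSO 6 h cultures Has1 ranked 8th of 9 at 3.61 ± 0.140 TPM and Has2 ranked 5th at 13.3 ± 0.931 TPM, below Cd44, Cemip, Vcan and Hyal2, and no neighbours overlapped. All DMSO 6 h libraries were near-identical, so these SDs and ranges measure only the spread between such libraries. PNU 6 h cultures had the same leading 5 genes, Cd44 (177 ± 23.2 TPM), Cemip (105 ± 2.88), Vcan (57.5 ± 11.7), Hyal2 (46.1 ± 3.47) and Has2 (15.3 ± 0.494). There, Has1, Tnfaip6 and Hyal1 overlapped. In DMSO 2 h cultures Cd44 overlapped Cemip, and each gene in the run Hyal2, Has2, Has1, Tnfaip6 and Hyal1 overlapped the next.

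The PNU and DMSO cultures were compared at 6 h with edgeR's quasi-likelihood test fitted over all 12 libraries, with Benjamini-Hochberg adjustment over all 17164 genes. None of the 9 genes passed an adjusted p of 0.05, where 1.05% of all genes did, and 3 of 9 had an unadjusted p under 0.05, where 15.6% of all genes did. DESeq2 called 1 of 9 (Has3), where it called 4.53% of the genes it gave an adjusted p, and limma-voom called 0. The largest differences relative to their error were Has3 (log2 fold change -0.68 ± 0.16 SE, adjusted p = 0.0732), Vcan (-0.39 ± 0.13, 0.184) and Cd44 (0.64 ± 0.27, 0.271). For Has1 the value was 1.13 ± 0.92 and for Has2 0.24 ± 0.43. The groups did not overlap for 3 higher genes (Has1, Has2 and Cd44) and 2 lower ones (Has3 and Vcan), where 14.1% of all genes were higher and 20.8% lower without overlap. The members' median log2 fold change was -0.008, against -0.005 over all genes.

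The Vcan value at 6 h depended on 1 library. Without PNU 6 h replicate 1, the Vcan difference was -0.56 ± 0.11 (edgeR adjusted p = 0.0173) and the Has3 difference -0.75 ± 0.18 (0.0368), where 6.00% of all genes passed. Without DMSO 2 h replicate 3, a library of neither group compared here, Cd44 (0.64 ± 0.10, 0.00270) and Has3 (-0.68 ± 0.14, 0.0128) passed, where 9.10% of all genes did. Summed pericyte and smooth muscle marker levels moved in the same direction as Cd44, at 4438 to 4498 CPM in PNU 6 h cultures and 3693 to 3755 CPM in DMSO 6 h cultures. Acta2 was the largest item (2008, 2405 and 2405 CPM against 1669, 1655 and 1622 CPM). Of 10 such markers tested, 7 had a positive log2 difference at 6 h. Des was lower in every PNU 6 h library, and Notch3 and Pdgfrb were lower in PNU replicates 2 and 3. The part of these markers in the result was not tested.

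At 2 h, again 0 of 9 genes passed in edgeR's test, where 0.291% of all genes did. Unadjusted p fell under 0.05 for 5 of 9 members, where 30.0% of all genes did. DESeq2 called 2 of 9 (Has2 and Cd44), where it called 15.8% of the genes it gave an adjusted p, and limma-voom called 0. The 5 members with an unadjusted p under 0.05 in edgeR's test were Has1 (log2 fold change 2.85 ± 0.91 SE, adjusted p = 0.0882), Has2 (1.44 ± 0.44, 0.0808), Cd44 (0.90 ± 0.27, 0.0777), Hyal1 (-0.70 ± 0.26, 0.111) and Hyal2 (-0.26 ± 0.11, 0.148). Has3 (-0.10 ± 0.16), Cemip (-0.13 ± 0.13), Vcan (0.06 ± 0.13) and Tnfaip6 (0.58 ± 0.44) had larger p-values, which does not show that they were equal. Groups did not overlap for 3 higher genes (Has1, Has2 and Cd44) and 1 lower gene (Hyal2), where 9.06% of all genes were higher and 13.6% lower without overlap. The members' median was 0.06, against -0.01 over all genes.

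Without DMSO 2 h replicate 3, 5 of 9 members passed at 2 h, where 43.8% of all genes did. The log2 differences between PNU and the remaining 2 DMSO libraries were 5.34 ± 0.61 for Has1 (edgeR adjusted p = 0.000265), 2.39 ± 0.17 for Has2 (3.37e-06) and 1.41 ± 0.11 for Cd44 (7.00e-06). They were -1.003 ± 0.123 for Hyal1 (9.74e-05) and -0.36 ± 0.10 for Hyal2 (0.0146). Leaving out any of the other 11 libraries did not bring Has1, Has2 or Cd44 past the threshold at 2 h, and gave log2 values of at least 2.34, 1.0998 and 0.66. Over all genes, too, DMSO 2 h replicate 3 was nearer to the PNU 2 h libraries than to its own group, by the chi-square values above. The remaining 2 DMSO 2 h libraries differed from each other by 72.05 on that measure, and both lay nearer to the DMSO 6 h libraries. Summed pericyte and smooth muscle markers at 2 h were 4476 to 4919 CPM in PNU cultures and 3606 to 4341 CPM in DMSO cultures, and their part was not tested. Of 10 such markers tested, 7 had a positive log2 difference. Notch3 and Des were lower in every PNU 2 h library than in DMSO 2 h replicates 1 and 2.

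**Figure D3:**
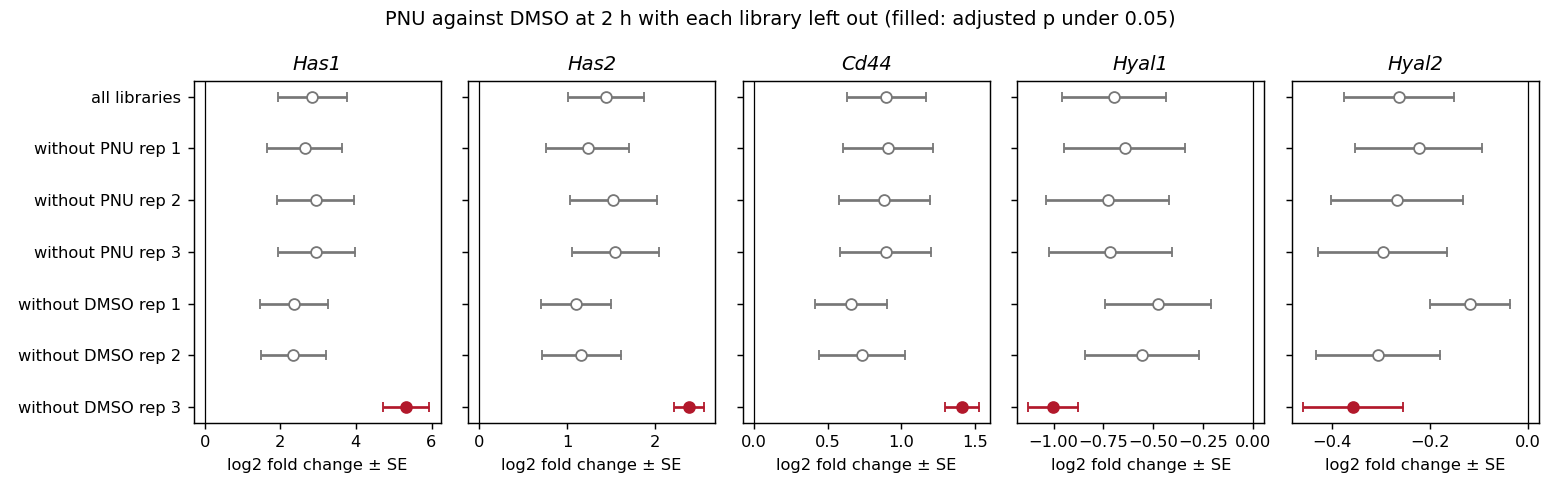
Log2 fold change of PNU against DMSO at 2 h with its SE for 5 genes, with all libraries (top) and with each 2 h library left out in turn, filled where the adjusted p was under 0.05. For each gene the values pass only in the fit without DMSO replicate 3, where Has1 is at 5.34 and Has2 at 2.39.

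Between 6 h and 2 h within PNU cultures, 4 of 9 members passed in edgeR's test, where 16.1% of all genes did (7.42% higher and 8.66% lower at 6 h). All 3 synthases fell: Has1 by a log2 value of -3.55 ± 0.95 SE (adjusted p = 0.0323), Has2 by -2.16 ± 0.45 (0.0147) and Has3 by -0.52 ± 0.16 (0.0483). Hyal1 rose by 1.14 ± 0.26 (0.0186), with the shared Naa80 exons as a limit. Cd44 (-0.64 ± 0.27, 0.115), Tnfaip6 (-0.98 ± 0.45, 0.143), Hyal2 (0.24 ± 0.11, 0.154), Vcan (-0.20 ± 0.13, 0.285) and Cemip (0.19 ± 0.13, 0.323) did not pass. Tnfaip6 was lower at 6 h in each of the 3 same-numbered pairs of PNU libraries. The 6 h libraries lay wholly above the 2 h libraries for Hyal1 and Hyal2 and wholly below for Has1, Has2, Has3 and Cd44, where 30.7% of all genes lay above and 21.0% below. Unadjusted p fell under 0.05 for 5 of 9 members, where 35.1% of all genes did. DESeq2 called Has2, Has3 and Hyal1, where it called 22.4% of genes, and gave no p for Has1. The level of Ddx3y also differed between the libraries compared, by the values above, and its part was not tested.

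With near-identical libraries summed, 0 of 9 members passed between 6 h and 2 h within PNU, where 0% of all genes did, and 2 members (Has2 and Hyal1) and 2236 of 18400 genes had an unadjusted p under 0.05. The differences kept their direction, at -2.26 ± 0.70 for Has2 (edgeR adjusted p = 0.410), -3.37 ± 1.44 for Has1 (0.417), -0.46 ± 0.29 for Has3 (0.482) and 1.14 ± 0.40 for Hyal1 (0.410). Only 2 libraries of each PNU group remained in that fit.

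The 4 calls made with all libraries kept their direction when single libraries were left out, but did not pass in every fit. In edgeR's test with each of 12 libraries left out in turn, Has2 passed 10 times (log2 -2.26 to -1.95), Hyal1 7 times (1.09 to 1.18), Has1 4 times (-4.33 to -3.24) and Has3 3 times (-0.59 to -0.45). Has2 failed without PNU 6 h replicate 2 (adjusted p = 0.0539) or 3 (0.0537), and Hyal1 failed without those (0.0539 and 0.0548) or without PNU 2 h replicate 1 (0.0608), 2 (0.0641) or 3 (0.0669). Has1 passed only without PNU 6 h replicate 1 (0.0388) or a DMSO 2 h library (0.000671 to 0.0179). It failed without PNU 2 h replicate 1 (0.0737), 2 (0.0759) or 3 (0.0776), PNU 6 h replicate 2 (0.0992) or 3 (0.0981), or DMSO 6 h replicate 1 (0.0540), 2 (0.0541) or 3 (0.0539). Without DMSO 2 h replicate 3, Cd44 (-0.64 ± 0.10, 0.000586) passed beside the 4 genes, 5 of 9 where 34.2% of all genes did. Cemip rose without PNU 2 h replicate 1 (0.0311), where 1106 of 17639 genes passed. Tnfaip6 fell without PNU 6 h replicate 1 (0.00733), where 1710 of 17604 genes passed. Hyal2 rose without DMSO 2 h replicate 1 (0.0401), where 4286 of 17647 genes passed. Has3 passed only without a DMSO 2 h library, and failed without any other single library, at adjusted p-values of 0.0618 to 0.164. Has3 also failed with library totals as scaling (0.0692), and Has1 (0.106) and Has3 (0.165) failed with no filter on low counts.

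Same-numbered PNU libraries deviated together, so the comparison was also fitted with the replicate number as a block. That pairing was taken from these data. Sox2 split the PNU libraries by number at both times, but Ddx3y changed its order between the times. It was at 2.23 CPM in PNU replicate 1 at 2 h and 0.141 CPM at 6 h. In replicates 2 and 3 it was at 0.0870 and 0.0150 CPM at 2 h and 7.43 and 6.74 CPM at 6 h. Whether a number marks a shared culture was not tested. Over all 12 libraries, Has3 failed with the block (edgeR adjusted p = 0.0665) and the other 3 genes passed, where 16.6% of all genes did. On the 6 PNU libraries alone, 6 of 9 members passed with the block, where 32.7% of all genes did. Tnfaip6 (-1.17 ± 0.23, 0.0202), Cd44 (-0.65 ± 0.08, 0.00775) and Hyal2 (0.23 ± 0.05, 0.0260) passed there beside Has1, Has2 and Hyal1, and Has3 did not (0.0769).

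Within DMSO cultures, 0 of 9 members passed between 6 h and 2 h and 0 had an unadjusted p under 0.05 in edgeR's test. Over all genes 0% passed, with 818 genes (4.77%) at an unadjusted p under 0.05, while DESeq2 called 20 genes and limma-voom 0. Has1 differed by -1.83 ± 0.93 and Has2 by -0.96 ± 0.44 on the log2 scale, values that rest on DMSO 2 h replicate 3. Without that library they were 0.66 ± 0.58 and -0.01 ± 0.16. For 1 gene, Cemip, the 6 h libraries lay wholly above the 2 h libraries, at 466 to 477 CPM against 395 to 460 CPM, where 6.12% of all genes did, and for 0 members they lay wholly below, where 3.64% did.

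**Figure D4:**
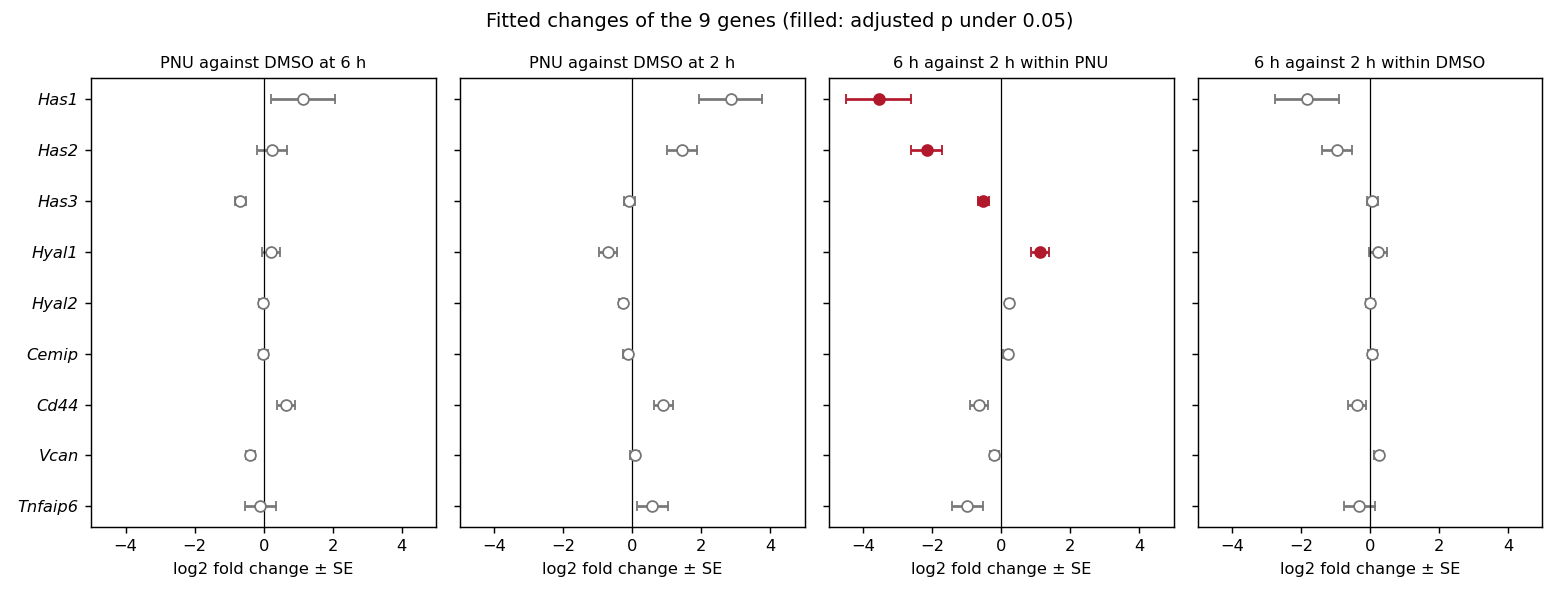
Log2 fold change with its SE for the 9 genes in 4 comparisons (PNU against DMSO at 6 h and at 2 h, and 6 h against 2 h within PNU and within DMSO), filled where the adjusted p was under 0.05. Filled points appear only for Has1, Has2, Has3 and Hyal1 in the time comparison within PNU cultures.

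The difference of the PNU effect between 6 h and 2 h was tested as an interaction. In edgeR's test 0 of 9 members passed, where 0.0350% of all genes did, and 3 had an unadjusted p under 0.05, where 11.3% of all genes did. These were Hyal1 (log2 difference of effects 0.91 ± 0.36 SE, adjusted p = 0.396), Has3 (-0.58 ± 0.23, 0.382) and Vcan (-0.45 ± 0.19, 0.406). Has1 and Has2 were not among them. With single libraries left out, Has1 ran from -4.21 to -1.21 and Has2 from -2.15 to -0.859, and each passed in 1 of 12 fits. Without DMSO 2 h replicate 3, 4 members passed, where 16.7% of all genes did: Has1 (-4.21 ± 0.73, 0.00744), Has2 (-2.15 ± 0.21, 0.000168), Cd44 (-0.77 ± 0.15, 0.00585) and Hyal1 (1.21 ± 0.16, 0.000965).

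Without both DMSO 2 h replicate 3 and PNU 6 h replicate 1, an alternative chosen after seeing the data, 6 members passed at 2 h, where 52.2% of all genes did. Tnfaip6 joined the 5 named above at 0.80 ± 0.24 (adjusted p = 0.0144). At 6 h, 4 members passed, where 28.6% of all genes did. Cd44 was higher in PNU cultures (0.76 ± 0.07), and Vcan (-0.56 ± 0.09), Has3 (-0.75 ± 0.14) and Tnfaip6 (-0.95 ± 0.25) were lower. In that fit Tnfaip6 differed in sign between the times, with a difference of effects of -1.75 ± 0.35 (adjusted p = 0.00440), and Has1 was at 0.35 ± 0.19 at 6 h. The difference of effects passed for 7 members, where 21.8% of all genes did, and 6 h against 2 h within PNU for 8, where 35.4% did.

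Across the 12 libraries, log2(CPM + 1) of Has1 and Has2 had a Pearson r of 0.963, Has1 and Cd44 0.869, and Has2 and Cd44 0.877. Hyal1 ran opposite to Has2 (-0.945) and Hyal2 opposite to Has1 (-0.920). Has3 and Vcan were less related to the leading pair, at -0.178 and -0.132 with Has1. The libraries share groups and near-identical members, so these values describe 12 points that are not independent. Among 10301 tested genes with a mean of at least 5 CPM, the 3 most like Has1 were Notch2 (0.992), Bhlhe40 (0.992) and Slc20a1 (0.991). Those most like Has2 were Kctd11 (0.991), Sipa1l2 (0.990) and P2ry2 (0.989), and those most like Cd44 were Mfap3l (0.992), Dusp10 (0.988) and Pitpna (0.987). For Hyal1 they were 4833439L19Rik (0.990), Higd2a (0.983) and Mlec (0.977), and for Hyal2 Pml (0.968), Ints3 (0.966) and Cmtm7 (0.964). Has3 was closest to Mapk12 (0.970), Ltbp4 (0.948) and Maml3 (0.944), Vcan to Dennd4a (0.952), Prickle2 (0.948) and Nrep (0.942), and Tnfaip6 to Il1r1 (0.944), Nedd9 (0.937) and Pde8a (0.930). Cemip had the loosest companions, Itga1 (0.891), Scly (0.873) and Nek9 (0.873).

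Another 53 genes that supply, cut, bind or process hyaluronan and its partners were listed, and 39 were abundant enough to test. Between PNU and DMSO cultures, 1 of the 39 rose and 0 fell at 6 h, and 0 passed at 2 h in edgeR's test, where 1.05% and 0.291% of all genes passed. At 2 h 18 of the 39 had an unadjusted p under 0.05, where 30.0% of all genes did. The median log2 difference of the 39 was 0.01 at 6 h and 0.01 at 2 h.

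The 8 genes of precursor supply were all tested. Ugdh, which makes UDP-glucuronic acid, had 578, 602 and 581 CPM in PNU 6 h cultures, against 324, 330 and 335 CPM in DMSO 6 h cultures. At 2 h it had 981, 917 and 902 CPM in PNU cultures, against 283, 366 and 768 CPM in DMSO cultures. The groups did not overlap at either time, and the log2 differences were 0.85 ± 0.27 at 6 h (edgeR adjusted p = 0.161) and 1.02 ± 0.27 at 2 h (0.0702).

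Uap1, which makes UDP-N-acetylglucosamine, had 470, 311 and 306 CPM in PNU 2 h cultures, against 51.8, 61.0 and 210 CPM in DMSO 2 h cultures (log2 difference 1.79 ± 0.47, edgeR adjusted p = 0.0687). Hk2, a hexokinase at the entry of glucose, had 297, 212 and 225 CPM in PNU 2 h cultures, against 42.2, 40.2 and 148 CPM in DMSO 2 h cultures (1.71 ± 0.42, 0.0652). Both genes were higher in every PNU library and highest within their DMSO group in replicate 3, as Has1 and Has2 were. Without that library the differences were 2.73 for Uap1 (7.81e-05) and 2.61 for Hk2 (4.35e-07), where 43.8% of all genes passed. With the replicate number as a block Hk2 also passed (1.86, edgeR adjusted p = 0.0492), where 311 of 17164 genes did. Same-numbered PNU 2 h and DMSO 2 h libraries did not deviate together (r = -0.016, 0.020 and -0.026), so that block rests on no pairing between these groups. Within PNU cultures both fell at 6 h relative to 2 h, Uap1 by -1.53 ± 0.47 (0.0483) and Hk2 by -1.84 ± 0.42 (0.0198). Neither passed with near-identical libraries summed (0.430 and 0.410), where 0 of 18400 genes did. With 1 of 12 libraries left out, Uap1 passed 3 times and Hk2 7 times, with adjusted p-values up to 0.132 and 0.0668. Of the other 6 precursor genes, 0 passed in that comparison.

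Among other breakdown genes, 5 of 9 were tested. Hexa, which codes for a subunit of the lysosomal hexosaminidases, had 267, 185 and 187 CPM in PNU 6 h cultures, against 288, 294 and 288 CPM in DMSO 6 h cultures. At 2 h Hexa had 140, 136 and 133 CPM in PNU cultures, against 309, 294 and 131 CPM in DMSO cultures (log2 difference -0.81 ± 0.26, edgeR adjusted p = 0.0872). Gusb, the lysosomal β-glucuronidase, had a 2 h difference of -0.51 ± 0.15 (0.0775). DMSO 2 h replicate 3 was as low as the PNU libraries for Hexa, and the 2 h groups overlapped.

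Cemip2, which encodes a cell-surface hyaluronidase, fell in PNU cultures at 6 h relative to 2 h, to 35.0, 49.4 and 49.5 CPM at 6 h, against 93.8, 76.1 and 77.5 CPM at 2 h (log2 difference -0.95 ± 0.16, edgeR adjusted p = 0.00664). It passed with each of 12 libraries left out, but not with near-identical libraries summed (-1.08 ± 0.24, 0.410), where 0 of 18400 genes did. Hyal4, Hyal5, Hyal6 and Spam1 had no more than 1 count per library.

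Of 16 other binding genes and receptors, 10 were tested. Stab1, a scavenger receptor of macrophages and sinusoidal endothelium related to the hyaluronan receptor Stab2, rose in PNU cultures at 6 h. It had 1.77, 1.31 and 0.925 CPM in PNU 6 h cultures, against 0.180, 0.265 and 0.352 CPM in DMSO 6 h cultures (log2 difference 2.32 ± 0.39, edgeR adjusted p = 0.0193). It failed with near-identical libraries summed, where 0 of 18400 genes passed. Stab1 also failed without PNU 6 h replicate 2 (0.0706) or any DMSO 6 h library (0.116, 0.124 and 0.0730 for replicates 1, 2 and 3). Summed leukocyte markers were 9.83 to 12.1 CPM in PNU 6 h cultures and 4.42 to 4.93 CPM in DMSO 6 h cultures. Most of that was Csf1r (8.45, 7.42 and 7.05 CPM against 1.98, 1.91 and 2.71 CPM), while the defining marker Ptprc stayed at or below 0.235 CPM, and 2 of 8 leukocyte markers had a median above 1 CPM. Their part in the Stab1 result was not tested.

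The 3 binding genes of highest mean CPM were Layn (log2 differences 0.30 ± 0.16 at 6 h and 0.39 ± 0.16 at 2 h), Habp4 (0.03 ± 0.07 and 0.19 ± 0.07) and Hmmr (0.30 ± 0.27 and 0.36 ± 0.26), and none passed. Acan, Ncan, Hapln1, Hapln2, Habp2 and Lyve1, among them link proteins and aggregating proteoglycans, were at 0.150 CPM or below in all libraries.

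The matrix complex partners include the inter-α-inhibitor heavy chains, the substrates of TSG-6, and 5 of 7 were tested. Ptx3, a pentraxin that crosslinks hyaluronan complexes, had 295, 134 and 133 CPM in PNU 6 h cultures, against 216, 216 and 213 CPM in DMSO 6 h cultures. The 2 h levels were 148, 83.4 and 80.3 CPM in PNU cultures, against 239, 219 and 107 CPM in DMSO cultures, with a log2 difference of -0.82 ± 0.38 (edgeR adjusted p = 0.175). As for Tnfaip6, replicate 1 was the highest library within both PNU groups. Itih2 rose in PNU cultures at 6 h relative to 2 h (1.11 ± 0.27, edgeR adjusted p = 0.0227). It had 4.65, 4.03 and 3.78 CPM at 6 h, against 2.41, 1.52 and 1.59 CPM at 2 h. Itih2 passed 7 times with 1 of 12 libraries left out (highest adjusted p = 0.0910). It did not pass with near-identical libraries summed (0.410), where 0 of 18400 genes did. Itih1 was at 0.0314 to 0.304 CPM.

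Of 9 genes that process versican and CD44, 7 were tested. Adamts1, a protease that cuts versican, had 722, 494 and 500 CPM in PNU 6 h cultures, against 683, 679 and 677 CPM in DMSO 6 h cultures. Its 2 h levels were 225, 203 and 208 CPM in PNU cultures, against 764, 802 and 191 CPM in DMSO cultures (log2 difference -1.43 ± 0.40, edgeR adjusted p = 0.0761). Adamts5, which cuts aggrecan and versican, had 266, 202 and 199 CPM in PNU 2 h cultures, against 587, 704 and 234 CPM in DMSO 2 h cultures (-1.15 ± 0.30, 0.0664). DMSO 2 h replicate 3 was level with the PNU libraries for both, and without it the differences were -1.85 for Adamts1 (4.77e-06) and -1.49 for Adamts5 (5.40e-06).

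Within PNU cultures 3 of these 7 proteases rose at 6 h relative to 2 h and 0 fell in edgeR's test, where 7.42% of all genes rose and 8.66% fell: Adamts1 by 1.37 ± 0.40 (adjusted p = 0.0434), Adamts5 by 1.23 ± 0.30 (0.0225) and Adamts9 by 1.76 ± 0.30 (0.00714). Adamts9, named after its values were seen, had 8.03, 5.04 and 5.06 CPM at 6 h, against 1.90, 1.52 and 1.71 CPM at 2 h. With 1 of 12 libraries left out, Adamts9 passed 12 times, Adamts5 8 times (highest adjusted p = 0.0867) and Adamts1 3 times (highest 0.126). With near-identical libraries summed none of the 3 passed (0.410, 0.410 and 0.417), where 0 of 18400 genes did. Mmp14, a membrane protease that sheds CD44, differed by -0.43 ± 0.20 at 6 h and -0.43 ± 0.20 at 2 h between PNU and DMSO cultures and did not pass.

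The 4 CD44 partners were tested and 0 passed in any of the 5 comparisons. Msn, which links CD44 to actin, had log2 differences of 0.45 ± 0.15 at 6 h and 0.35 ± 0.15 at 2 h, Rdx -0.07 ± 0.10 and 0.01 ± 0.10, and the ligand Spp1 -0.39 ± 0.24 and -0.06 ± 0.24. Over the 39 genes, 4 rose and 3 fell within PNU cultures at 6 h relative to 2 h, 7 of 39 where 16.1% of all genes passed, and 0 passed within DMSO cultures or as a difference of PNU effects.

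**Figure D5:**
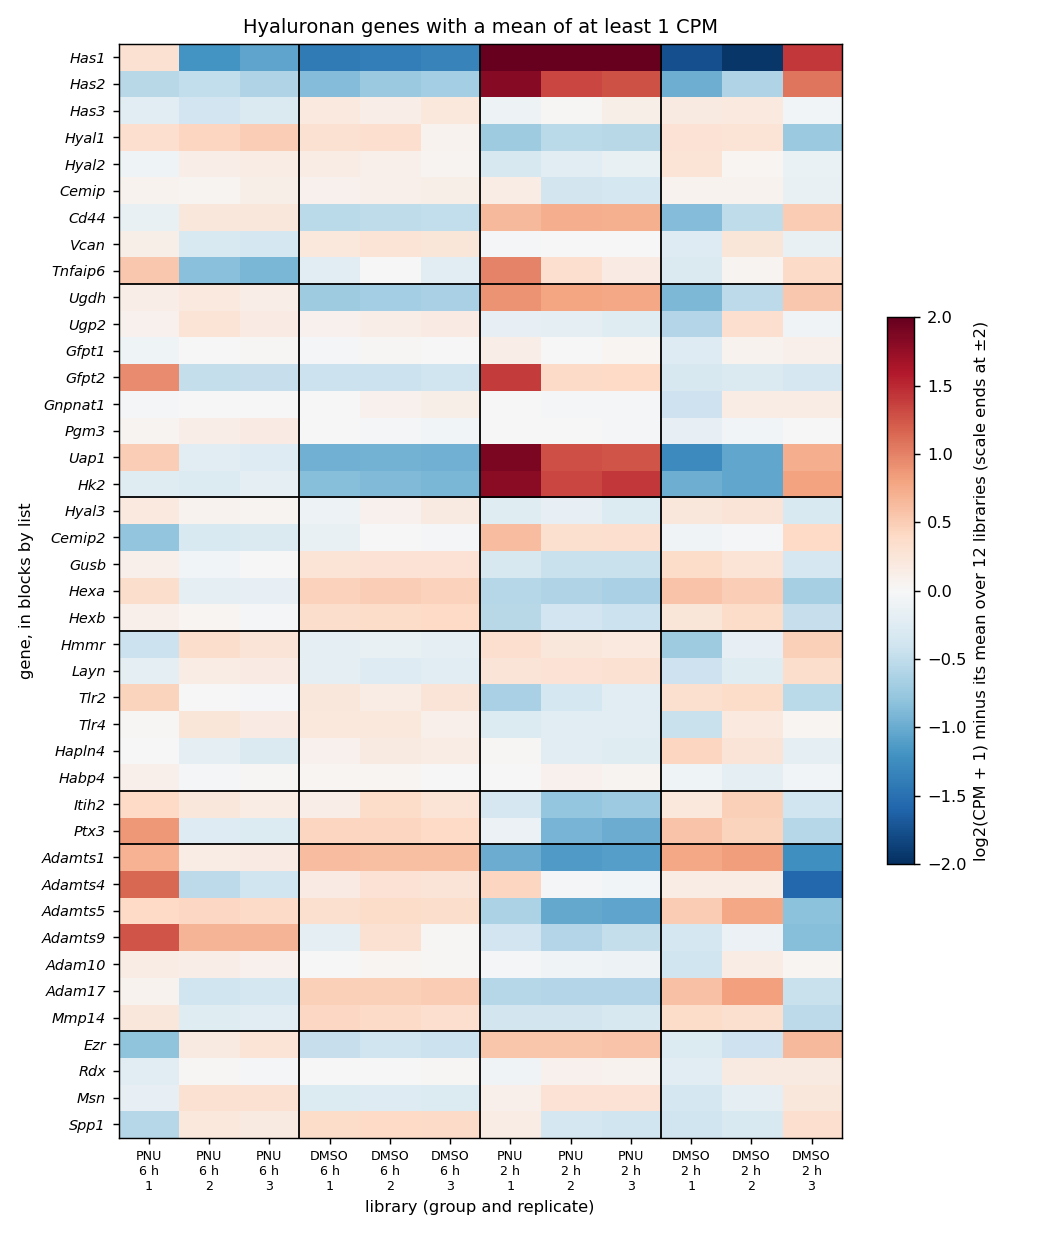
Log2(CPM + 1) minus its mean over the 12 libraries for the 41 hyaluronan genes with a mean of at least 1 CPM, in rows by list (the 9 genes, precursor supply, other breakdown, other binding, matrix partners, processing, CD44 partners) and libraries in columns by group. The column of DMSO 2 h replicate 3 shows the same signs as the PNU 2 h columns for Has1, Has2, Cd44, Ugdh, Uap1, Hk2, Hexa, Adamts1 and Adamts5.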

How the data were processed

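Poly(A)-selected RNA was sequenced as 150 bp read pairs. Per the labels' protocols, the authors used fastp 0.23.2 for trimming and STAR 2.5.2b for alignment (GRCm38), and featureCounts (Subread 1.5.2) gave gene counts. The deposited values are raw counts per Ensembl gene, with no normalization, 1 table per library. No source used here states the strand setting. Multi-mapped reads and shared exons could shift counts of overlapping genes such as Hyal1. DESeq2 is listed in the submitters' processing notes without a stated role.

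Samples were grouped by the treatment and time in their labels. CPM used library totals, and TPM used the exon length in the tables. Tests used edgeR 4.0.16 in R 4.3.3 (TMM scaling, default low-count filter, 1 mean per group, robust quasi-likelihood fit, common biological coefficient of variation 0.198), with 5 contrasts and Benjamini-Hochberg adjustment over 17164 genes at a threshold of 0.05. The SE given with an edgeR log2 fold change is its absolute value divided by the square root of the quasi-likelihood F statistic. Tests were tried on simulated independent libraries of equal spread, without displaced or near-identical ones. That trial cannot tell how the test behaves with the libraries described above. Alternatives were DESeq2 1.42.0 with its Wald test, limma-voom (limma 3.58.1), other scalings and filters, fewer libraries and a replicate block. Likeness used log2(CPM + 1).

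The members and lists were chosen with earlier results of these data known. The named genes were all 9 members, listed genes that passed between PNU and DMSO or in the difference of effects, and the 3 of highest mean CPM in each list. Adamts9, Csf1r and the listed genes near 0 were named after their values were seen. Of the listed symbols, 2 were not matched and not used.

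Same-numbered PNU libraries at 6 h and 2 h deviated together from their group means (r = 0.317, 0.276 and 0.270 over genes), so a fit with the replicate number as a block is given beside that comparison, while the main test has no block. The pairing comes from the data, since no label says that a number marks a shared culture. Replicates 2 and 3 of each PNU group were near-identical, so the r values above are not independent. Each total fixes a floor: 3 counts correspond to 0.0451 to 0.0677 CPM, counting error only.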

Additional observations from a re-analysis of the deposited data

How the results depend on the processing

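Of the 45 fold changes of the 9 genes, 10 had the opposite sign under at least 1 alternative (26 values in all, none past the threshold with all libraries or under the alternative). They include Has1 and Cd44 within DMSO and Tnfaip6 at 6 h. The number of the 9 genes passing edgeR's test with all libraries is set below beside each alternative where it differed. Brackets give the share or number of all genes that passed in the same fit. For DESeq2 the share is among genes it gave an adjusted p. At 2 h it was 0 (0.291%), against 2 with DESeq2 (Cd44 and Has2, 15.8%), which gave no p for Has1. It was 6 without both DMSO 2 h replicate 3 and PNU 6 h replicate 1 (52.2%). With single libraries left out it ranged between 0 and 5, the 5 coming without DMSO 2 h replicate 3 (43.8%). At 6 h it was 0 (1.05%), against 1 with DESeq2 (Has3, 4.53%) and 4 without both libraries (28.6%). With only the 6 libraries of the comparison it was 2 (Cd44 and Has3, 1646 of 16348 genes). The range was 0 to 2 with single libraries left out. The 2 came without DMSO 2 h replicate 3 (9.10%) or without PNU 6 h replicate 1 (6.00%). For the difference of effects it was 0 (0.0350%), against 7 without both libraries (21.8%), with a range of 0 to 4. The 4 came without DMSO 2 h replicate 3 (16.7%). For 6 h against 2 h within PNU it was 4 (16.1%), against 3 with DESeq2 (no p for Has1, 22.4%). With library totals it was 3 (Has3 lost, 2840 of 17164 genes). It was 5 with only the PNU libraries (Cd44 gained, 5311 of 16564 genes). With no filter on low counts it was 2 (Has2 and Hyal1, 1915 of 32751 genes). It was 0 with near-identical libraries summed (0%) and 8 without both libraries (35.4%), with a range of 0 to 5. Within DMSO it was 0 throughout. Summing near-identical libraries leaves 8 libraries; this, the omission of both libraries and the block on PNU libraries alone were chosen after seeing the data. The causes were not tested.

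With the replicate number as a block, 0, 0, 0, 3 and 0 members passed (2 h, 6 h, difference of effects, time within PNU, time within DMSO), Has3 being the 1 lost call. Of 17164 genes, 311, 296, 0, 2847 and 0 passed in the same order. On PNU libraries alone with the block, 6 passed within PNU (Tnfaip6, Cd44 and Hyal2 gained), where 32.7% of all genes did. Has3 had an edgeR adjusted p of 0.0769 there. Only 6 of 18 same-numbered pairs of libraries had r above 0.1 (-0.423 to 0.555), and 7 of 12 libraries correlated best with their own number.

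Over all genes, the numbers called at 2 h, at 6 h, for the difference, within PNU and within DMSO were 50, 181, 6, 2759 and 0. They were 2431, 863, 238, 3863 and 20 with DESeq2, 140, 231, 15, 1915 and 0 without a filter, 311, 296, 0, 2847 and 0 with the replicate block, 0 for each with near-identical libraries summed, and 9080, 4981, 3788, 6170 and 117 without both libraries. With library totals as scaling the difference of effects had 0 and with limma-voom 4. With only the libraries of a comparison, 0 passed at 2 h, 1646 at 6 h, 5311 within PNU (5412 with the block) and 0 within DMSO. With single libraries left out the ranges were 0 to 7724, 22 to 1606, 0 to 2947, 566 to 6026 and 0 to 4. Has3, Hyal1, Tnfaip6 and most Has1 libraries outside PNU 2 h had the lowest member counts, down to 76, so relative counting error is largest there. Has1 ran from 76 to 1547 counts within DMSO 2 h cultures, and whether depth limited its test was not tested.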
